A study of Mus musculus with 6 samples.

Results

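Actin filaments are built and taken apart by a small set of proteins, and 10 genes of that set were examined in infarcted mouse hearts with and without Zeb2 in cardiomyocytes. The 10 genes were Actb and Actg1 (cytoplasmic actins), Cfl1 and Cfl2 (cofilins), Pfn1 and Pfn2 (profilins) and Tpm1, Tpm2, Tpm3 and Tpm4 (tropomyosins). They were chosen by symbol from the 38293 genes of the count table, and 10 of 10 passed the filter on low counts that left 14746 genes for testing. RNA came from adult mice 14 days after myocardial infarction (MI), made by permanent occlusion of the left anterior descending coronary artery. The 3 Zeb2 cKO mice carried Zeb2 fl/fl and a Cre recombinase driven by the Myh6 promoter, which is active in cardiomyocytes. The 3 control mice, called WT in the labels, carried Zeb2 fl/fl without Cre according to the methods, and are called Zeb2 fl/fl here. All 6 hearts were therefore injured and floxed, and there was no uninjured heart and no heart with Cre alone. The labels place the tissue at the border of the infarct, whereas the methods place it in the remote zone.

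In an actin filament, profilin hands monomers to the growing end, while cofilin binds older filament and severs it. Tropomyosin lies along the filament and sets which proteins can bind there. In heart muscle the thin filament of the sarcomere is built on cardiac actin and striated muscle tropomyosin, whereas cytoplasmic actins and non-muscle tropomyosins serve the cell cortex, stress fibres and moving cells. Tpm1 and Cfl2 are the predominant muscle genes of their families, and Tpm4 and Cfl1 are expressed mostly in non-muscle cells.

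The libraries held 37288174 to 51136331 counts, of which 60.5 to 67.0% lay in mitochondrially encoded genes. Levels are given as CPM, the counts of a gene scaled to a common library size with edgeR's TMM factors. Zeb2 itself, which codes for a transcription factor, ranged from 61.3 to 116 CPM without Cre and from 59.6 to 72.6 CPM with it, so that the groups overlapped, and the tissue holds other cells in which Zeb2 is not deleted. Zeb2 fl/fl replicate 2 stood apart from the other 5 libraries. Its summed level of 10 cardiomyocyte markers was 32930.2 CPM against 53705 to 65656 CPM elsewhere, and it was the lowest library for 9 of the 10. Its summed level of 11 fibroblast markers was 9668 CPM against 1691 to 2341 CPM, and it was the highest library for 11 of 11. Its summed level of 12 macrophage markers was 943 CPM against 237 to 333 CPM, again the highest for 12 of 12. In bulk tissue, fewer cells of a type and less RNA per cell cannot be told apart, and the results that moved most with this library are given with and without it.

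Of the 10 genes, 0 passed a threshold of 0.05 when the genotypes were compared (edgeR's quasi-likelihood test, Benjamini-Hochberg adjustment over all genes, adjusted p from 0.957 to 0.980). Over all genes tested edgeR likewise called 0, or 0%, and DESeq2 called 2, none of them among the 10. At an unadjusted p under 0.05, edgeR's test counted 280 of all genes. Tpm2 had the one unadjusted p under 0.05 among the 10, beside 1.90% of all genes tested, and it was again the only one without Zeb2 fl/fl replicate 2, beside 2.63%. Tpm2 was also the one member whose groups did not overlap, beside 6.36% of all genes tested. Actb and Tpm3 had log2 fold changes under -0.2, beside 22.6% of all genes, and Actg1, Pfn2 and Tpm2 had ones over 0.2, beside 15.9%. Without Zeb2 fl/fl replicate 2, 0 of the 10 lay under -0.2, beside 11.7% of all genes, and Pfn2 and Tpm2 lay over 0.2, beside 14.2%. The median log2 fold change of the 10 genes was 0.07, against -0.01 over all genes tested. Zeb2 fl/fl replicate 2 was the highest of the 6 libraries for 4 of the 10 (Actb, Cfl1, Pfn1 and Tpm3), beside 35.2% of all genes, and the lowest for 3 (Actg1, Tpm1 and Tpm2), beside 34.6%.

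**Figure D1:**
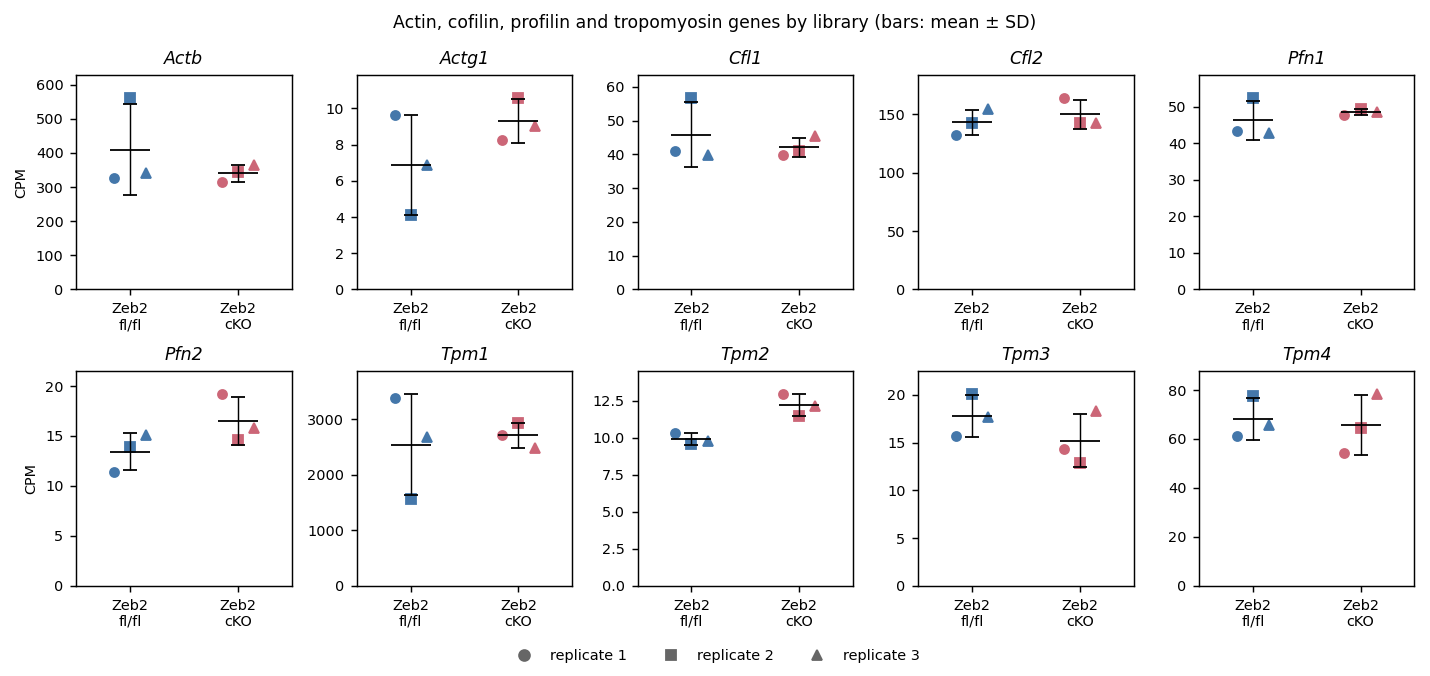
Level of each of the 10 genes by library, in CPM on linear axes that start at 0 and differ between panels. Points are the 3 Zeb2 fl/fl and 3 Zeb2 cKO libraries, shaped by replicate, and bars are the mean ± SD. Tpm2 alone shows groups that do not overlap, and Zeb2 fl/fl replicate 2 is set apart for Actb, Actg1, Cfl1 and Tpm1.

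To compare genes with each other, CPM was divided by the length of all annotated exons of a gene in kilobases (CPM per kb). On this scale Tpm1 was the most abundant of the 10, at 392 ± 141 CPM per kb in Zeb2 fl/fl hearts against 417 ± 33.8 in Zeb2 cKO hearts (mean ± SD, n = 3 each, as for all values of this kind). Actb followed at 153 ± 49.3 and 127 ± 9.34 CPM per kb, then Cfl2 at 43.8 ± 3.33 and 45.9 ± 3.80 and Tpm4 at 31.0 ± 3.85 and 29.8 ± 5.49. The ranges over the 6 libraries did not overlap between any neighbours from Tpm1 down to Pfn1. Pfn1, at 19.2 ± 2.24 and 20.2 ± 0.349 CPM per kb, overlapped with Cfl1, at 16.1 ± 3.35 and 14.8 ± 1.01. Pfn2, Tpm2, Actg1 and Tpm3 made up the low end, with means between 2.50 and 4.67 CPM per kb, and in this order each of these 4 overlapped with the next. With the longest transcript as the length, Tpm3 moved from the 10th to the 7th place, ahead of Pfn2, Tpm2 and Actg1, and the first 6 places stayed as they were.

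The tropomyosin genes are given first, beginning with Tpm1 (ENSMUSG00000032366, chr9:67022590-67049406, minus strand, GRCm38), the main tropomyosin of the sarcomere. Tpm1 stood at 3374, 1566 and 2685 CPM among Zeb2 fl/fl hearts, in the order of their replicate numbers, as all values by library are given here, and at 2708, 2925 and 2487 CPM among Zeb2 cKO hearts. Zeb2 fl/fl replicate 2 was the lowest of the 6, at 51.7% of the mean of the other Zeb2 fl/fl libraries, and the remaining libraries of both groups were mixed. The log2 fold change was 0.09 (standard error 0.32, 95% confidence interval -0.67 to 0.85), and it was -0.16 without that library. The low cardiomyocyte marker sum of the library moved with this value, and its part in it was not tested.

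Tpm4 (ENSMUSG00000031799, chr8:72134975-72153142, plus strand), the non-muscle gene, stood at 61.3, 77.7 and 65.7 CPM in Zeb2 fl/fl and at 54.3, 64.5 and 78.4 CPM in Zeb2 cKO libraries. The Zeb2 fl/fl values lay within the range of the Zeb2 cKO values, which held both the lowest and the highest library. Its log2 fold change was -0.05 (standard error 0.17, 95% confidence interval -0.47 to 0.36). Over the longest Tpm4 transcript, 34.8% of the bases had a near-identical copy (at least 75 bases long, 95% identity or more) in 2 other annotated genes, so reads there could have been split or dropped when they were counted.

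Tpm2 (ENSMUSG00000028464, chr4:43514711-43523765, minus strand) codes for beta-tropomyosin, which is a minor partner of the Tpm1 product in the adult rodent heart and is abundant in slow skeletal and smooth muscle. Tpm2 stood at 10.4, 9.57 and 9.77 CPM in Zeb2 fl/fl and at 13.0, 11.5 and 12.2 CPM in Zeb2 cKO libraries. Each Zeb2 cKO library lay above each Zeb2 fl/fl library, as was true, in this direction, of 3.39% of all genes tested. The means were 9.90 ± 0.408 and 12.2 ± 0.736 CPM, a 1.23-fold difference, and the log2 fold change was 0.30 (standard error 0.11, 95% confidence interval 0.043 to 0.56). The unadjusted p of edgeR's quasi-likelihood test was 0.028, and after Benjamini-Hochberg adjustment it was 0.957. The exact permutation test gave a two-sided p of 0.1, the smallest that 3 against 3 allow. The difference did not rest on Zeb2 fl/fl replicate 2, since the log2 fold change without it was 0.28. The unadjusted p of edgeR's test was over 0.05, however, without Zeb2 fl/fl replicate 3 (0.087), Zeb2 cKO replicate 1 (0.10) or Zeb2 cKO replicate 3 (0.064). Smooth muscle cells also express Tpm2. The summed level of 8 smooth muscle markers was 139 to 173 CPM in Zeb2 fl/fl and 157 to 220 CPM in Zeb2 cKO libraries. Of these markers, 5 had log2 fold changes above 0 and 3 below, and 1 had groups that did not overlap, lower in Zeb2 cKO. Of 8 listed skeletal muscle markers, 4 were too low to be tested. The summed level for the skeletal list was 653 to 1484 CPM and 869 to 1800.2 CPM, respectively. The 4 tested skeletal markers all had log2 fold changes above 0, with a median of 0.28. Groups did not overlap for 1 of them, higher in Zeb2 cKO, beside 3.39% of all genes tested. Whether these 4 genes mark skeletal muscle cells in this tissue was not tested. The part of either cell type in the Tpm2 values was not tested.

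Tpm3 (ENSMUSG00000027940, chr3:90072649-90100902, plus strand), which has slow skeletal muscle and many non-muscle transcripts, stood at 15.7, 20.1 and 17.7 CPM in Zeb2 fl/fl and at 14.4, 12.9 and 18.3 CPM in Zeb2 cKO libraries. Zeb2 cKO replicate 3 lay among the Zeb2 fl/fl libraries, and the other Zeb2 cKO libraries lay below them. The log2 fold change was -0.23 (standard error 0.17, 95% confidence interval -0.63 to 0.17). It was -0.13 without Zeb2 fl/fl replicate 2, the highest library, and -0.39 without Zeb2 cKO replicate 3, while leaving out Zeb2 cKO replicate 2, the lowest, gave -0.13. The annotation lists 21 transcripts of Tpm1 and 16 of Tpm3, made by alternative promoters and splicing for muscle and non-muscle use, and counts per gene add them together, so a switch between transcripts of 1 gene could not be seen. A near-identical copy in another gene, Tpm3-rs7, covered 25.4% of the longest Tpm3 transcript, so its level is uncertain.

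For the 3 tropomyosin genes that these results turn on, the 250 bases before the RefSeq start are printed, on the gene's strand from build GRCm38.p6. They are chr9:67049214-67049463 (minus strand) for Tpm1, chr4:43523555-43523804 (minus strand) for Tpm2 and chr8:72135038-72135287 (plus strand) for Tpm4. By the gene coordinates given above, the Tpm4 window lies wholly inside the gene, and those of Tpm1 and Tpm2 lie partly inside. Matches in these windows therefore need not lie upstream of the annotated gene. Capitals mark matches, on either strand, to CATTCC (the M-CAT element of muscle promoters) and GGGCGG (a GC box).
Tpm1: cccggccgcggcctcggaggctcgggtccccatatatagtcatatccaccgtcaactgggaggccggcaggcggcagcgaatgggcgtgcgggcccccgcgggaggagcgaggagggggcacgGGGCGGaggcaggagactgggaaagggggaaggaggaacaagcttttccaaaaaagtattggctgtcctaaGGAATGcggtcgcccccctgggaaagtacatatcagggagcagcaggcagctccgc
Tpm2: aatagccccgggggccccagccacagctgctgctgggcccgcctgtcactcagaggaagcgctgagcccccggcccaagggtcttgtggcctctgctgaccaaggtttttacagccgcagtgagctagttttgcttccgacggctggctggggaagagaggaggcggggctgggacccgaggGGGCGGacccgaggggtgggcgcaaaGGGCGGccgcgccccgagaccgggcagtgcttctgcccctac
Tpm4: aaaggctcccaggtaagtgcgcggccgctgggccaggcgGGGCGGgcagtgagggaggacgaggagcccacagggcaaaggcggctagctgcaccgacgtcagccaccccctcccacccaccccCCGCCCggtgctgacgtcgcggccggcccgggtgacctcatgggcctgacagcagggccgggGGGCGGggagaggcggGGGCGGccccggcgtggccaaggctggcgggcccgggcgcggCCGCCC
The Tpm1 window held 1 CATTCC match, 56 to 51 bases before the start, where such a match occurs in 12.6% of all 32851 RefSeq windows of this length. GGGCGG, present in 32.7% of all windows, occurred in 5 places in the Tpm4 window, 2 in that of Tpm2 and 1 in that of Tpm1. Windows were at hand for 9 of the 10 genes, 10 windows in all because Tpm3 had a pair, and none for Actb. CACCTG, a core sequence that ZEB proteins can bind and which occurs in 17.2% of all windows, was found in 0 of these 10 windows, which says only that these letters are absent from these stretches. TATAAA, in 12.4% of all windows, was likewise found in 0 of the 10.

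The tropomyosin pool as a whole was dominated by Tpm1. Of the tropomyosin reads per kb of exon, Tpm1 held 93.9, 85.2 and 92.0% in Zeb2 fl/fl and 93.0, 92.7 and 90.0% in Zeb2 cKO libraries. Tpm4 held 5.02, 12.4 and 6.62% and 5.49, 6.02 and 8.35%, respectively. Tpm2 made up 0.642 to 1.16% and Tpm3 0.436 to 1.17% over the 6 libraries. Zeb2 fl/fl replicate 2 had the lowest share of Tpm1 and the highest of the other three. With the length of the longest transcript in place of all exons, Tpm1 held 91.7 to 96.7% and Tpm4 2.38 to 6.17%.

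**Figure D2:**
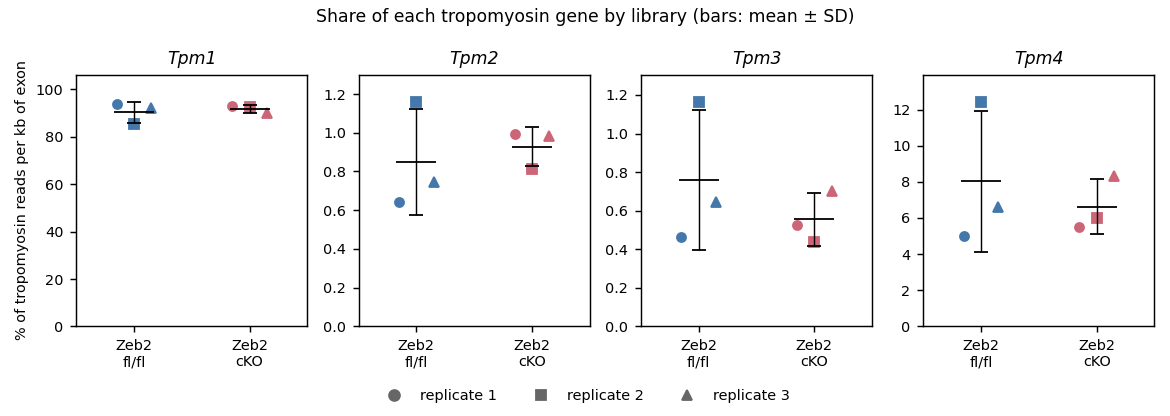
Share of each tropomyosin gene in the tropomyosin reads per kb of exon, in percent, by library, on axes that start at 0. Bars are the mean ± SD of 3 libraries. In Zeb2 fl/fl replicate 2 the share of Tpm1 is 85.2% and that of Tpm4 12.4%, and the other 5 libraries hold 90.0 to 93.9% and 5.02 to 8.35%.

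The ratio of muscle to non-muscle tropomyosin is free of library size. Counts of Tpm1 were 55.1, 20.2 and 40.9 times those of Tpm4 in Zeb2 fl/fl libraries and 49.9, 45.4 and 31.7 times in Zeb2 cKO libraries. The Zeb2 fl/fl ratios therefore spanned both sides of all Zeb2 cKO ratios. The mean log2 ratio was 0.22 higher in Zeb2 cKO hearts (exact permutation test, two-sided p = 0.7), and without Zeb2 fl/fl replicate 2 it was lower, at -0.19. Tpm1 over Tpm3 behaved alike, with a difference of 0.40 (exact permutation p = 0.6) that came to -0.0058 without this library. Tpm2 over Tpm4 was 0.169, 0.123 and 0.149 in Zeb2 fl/fl and 0.239, 0.178 and 0.155 in Zeb2 cKO libraries, where the lowest Zeb2 cKO ratio lay under the highest Zeb2 fl/fl ratio. The difference of the mean log2 ratios was 0.36 (exact permutation p = 0.2) and without Zeb2 fl/fl replicate 2 it was 0.24.

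**Figure D3:**
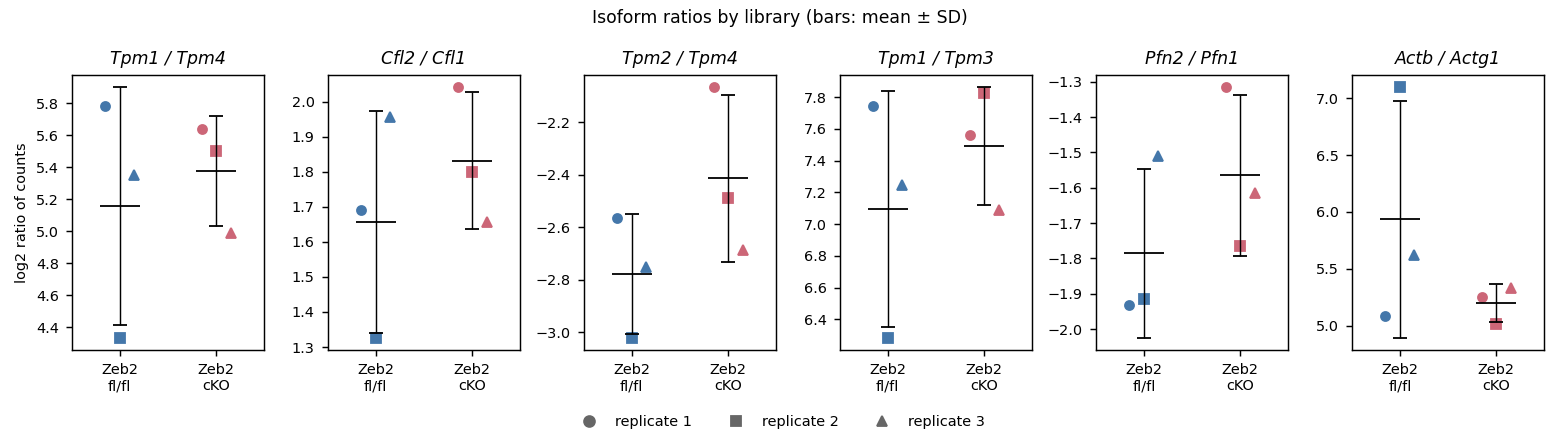
Log2 ratio of the counts of 6 gene pairs by library, on axes that differ between panels. Points are libraries, shaped by replicate, and bars are the mean ± SD of 3. The groups overlap in each panel, and Zeb2 fl/fl replicate 2 is the lowest point for Tpm1 over Tpm4, Cfl2 over Cfl1, Tpm2 over Tpm4 and Tpm1 over Tpm3 and the highest for Actb over Actg1.

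The cofilins sever actin filaments and return monomers to the pool. Cfl2 (ENSMUSG00000062929, chr12:54858809-54862877, minus strand), the muscle gene, stood at 132, 142.5 and 154 CPM in Zeb2 fl/fl and at 164, 142.6 and 142.8 CPM in Zeb2 cKO libraries. Its log2 fold change was 0.07 (standard error 0.14, 95% confidence interval -0.26 to 0.40). Cfl1 (ENSMUSG00000056201, chr19:5490455-5495201, plus strand), the non-muscle gene, stood at 41.0, 56.8 and 39.7 CPM and at 39.9, 41.0 and 45.3 CPM, respectively. Zeb2 fl/fl replicate 2 was the highest library for Cfl1, at 141% of the mean of the other Zeb2 fl/fl libraries, whereas its Cfl2 level lay between theirs. The log2 fold change of Cfl1 was -0.12 (standard error 0.17, 95% confidence interval -0.52 to 0.27) and came to 0.063 without that library. Fibroblast and macrophage marker sums were high in the same library, and their part in the Cfl1 value was not tested.

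Cfl2 counts were 3.23, 2.51 and 3.88 times those of Cfl1 in Zeb2 fl/fl libraries and 4.12, 3.48 and 3.15 times in Zeb2 cKO libraries. The groups overlapped, with a difference of the mean log2 ratios of 0.17 (exact permutation test, two-sided p = 0.5) that came to 0.0095 without Zeb2 fl/fl replicate 2. Per kb of exon, Cfl2 made up 68.6 to 78.2% of cofilin reads over the 6 libraries. To show how far the reads of these 2 genes can be told apart, the first 75 bases of their coding sequences are printed from the Gencode M21 transcripts, a stretch as long as 1 read, with capitals at the 20 bases where they differ.
Cfl1: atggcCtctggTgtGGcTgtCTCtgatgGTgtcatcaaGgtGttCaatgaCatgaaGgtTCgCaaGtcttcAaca
Cfl2: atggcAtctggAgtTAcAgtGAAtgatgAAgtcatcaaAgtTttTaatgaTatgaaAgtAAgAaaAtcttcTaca
Over the whole coding sequence of 501 bases they were 72.1% identical, with 0 identical windows of 75 bases. Of the longest Cfl1 transcript, 36.2% matched 3 other annotated genes at the length and identity given above, and whether reads were lost to or gained from these was not tested, so the level of Cfl1 is uncertain.

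The profilins load actin monomers with ATP and deliver them to growing ends. Pfn1 (ENSMUSG00000018293, chr11:70651850-70654644, minus strand), the ubiquitous gene, stood at 43.4, 52.5 and 42.9 CPM in Zeb2 fl/fl and at 47.8, 49.5 and 48.5 CPM in Zeb2 cKO libraries. The Zeb2 cKO libraries all lay above Zeb2 fl/fl replicates 1 and 3 and below replicate 2. The log2 fold change of Pfn1 was 0.07 (standard error 0.12, 95% confidence interval -0.22 to 0.36), and 0.17 without Zeb2 fl/fl replicate 2 (standard error 0.087). Pfn2 (ENSMUSG00000027805, chr3:57841895-57848079, minus strand), best known from neurons, stood at 11.4, 13.9 and 15.1 CPM and at 19.2, 14.6 and 15.8 CPM, respectively. The groups overlapped through Zeb2 cKO replicate 2 alone, which lay under Zeb2 fl/fl replicate 3. Its log2 fold change was 0.30 (standard error 0.16, 95% confidence interval -0.08 to 0.68), close to that of Tpm2 in size but with a wider interval, and it was 0.33 without Zeb2 fl/fl replicate 2. Pfn2 over Pfn1 counts ranged from 0.262 to 0.351 in Zeb2 fl/fl and from 0.295 to 0.402 in Zeb2 cKO libraries, with a difference of the mean log2 ratios of 0.22 (exact permutation p = 0.3). Pfn1 held 78.6 to 84.9% of profilin reads per kb of exon.

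**Figure D4:**
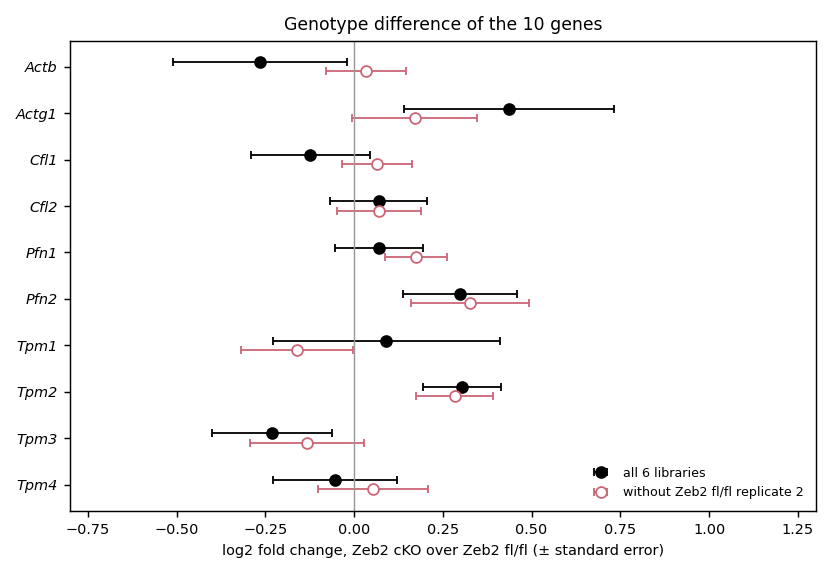
Log2 fold change (Zeb2 cKO over Zeb2 fl/fl, ± standard error, edgeR) of the 10 genes with all 6 libraries (filled) and without Zeb2 fl/fl replicate 2 (open). Actb moves from -0.27 to 0.034, Cfl1 from -0.12 to 0.063, Tpm4 from -0.05 to 0.054 and Tpm1 from 0.09 to -0.16, while Tpm2 stays at 0.30 and 0.28.

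The cytoplasmic actins form the filaments outside the sarcomere. Actb (ENSMUSG00000029580, chr5:142903115-142906754, minus strand) stood at 327, 562 and 340 CPM in Zeb2 fl/fl and at 315, 343 and 365 CPM in Zeb2 cKO libraries. Zeb2 fl/fl replicate 2 was the highest, at 168% of the mean of the other Zeb2 fl/fl libraries, and the remaining 5 libraries lay between 315 and 365 CPM. The log2 fold change was -0.27 (standard error 0.24, 95% confidence interval -0.85 to 0.31), and 0.034 without that library. Actg1 (ENSMUSG00000062825, chr11:120345690-120348542, minus strand) stood at 9.64, 4.10 and 6.90 CPM and at 8.25, 10.6 and 9.04 CPM, respectively. Here Zeb2 fl/fl replicate 2 was the lowest, at 49.6% of the mean of the other Zeb2 fl/fl libraries. The log2 fold change was 0.44 (standard error 0.30, 95% confidence interval -0.27 to 1.14), the largest in size of the 10, and 0.17 without that library. Without Zeb2 fl/fl replicate 1 it was 0.76, with an unadjusted p of 0.024 and an adjusted p of 0.596 in edgeR's test. In that fit 1134 of all genes had an unadjusted p under 0.05, against 280 with all libraries.

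Actb and Actg1 thus differed in opposite directions in the same library. Actb counts were 33.9, 137 and 49.3 times those of Actg1 in Zeb2 fl/fl libraries and 38.2, 32.3 and 40.4 times in Zeb2 cKO libraries. The mean log2 ratio differed by -0.73 (exact permutation test, two-sided p = 0.3), and by -0.15 without Zeb2 fl/fl replicate 2. The level of Actg1 is uncertain, because 57.8% of its longest transcript matched 13 other annotated genes over at least 75 bases at 95% identity or more, and how reads that map to several places were counted is not given in the sources used here. Such matches were 0 for Actb. The raw counts of Actg1 ranged from 180 to 486 per library. The 2 coding sequences, of 1128 bases each, were 88.7% identical with 0 identical windows of 75 bases, and 12 differences, in capitals, fall in the first 75 bases of the Gencode M21 transcripts.
Actb: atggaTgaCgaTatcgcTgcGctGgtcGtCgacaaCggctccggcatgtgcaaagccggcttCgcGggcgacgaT
Actg1: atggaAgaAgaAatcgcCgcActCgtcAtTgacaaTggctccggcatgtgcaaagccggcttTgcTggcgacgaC

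Cytoplasmic actin genes are classic targets of serum response factor (SRF), which binds the CArG box. The window before the RefSeq start of Actg1 (chr11:120348496-120348745, minus strand, GRCm38.p6) is printed because it alone among the 10 windows held a CArG box. This window lies partly inside the gene by the coordinates given above. Capitals mark the CArG box, searched as CC, 6 bases of A or T, then GG, and the GGGCGG matches on either strand, 2 of which overlap.
Actg1: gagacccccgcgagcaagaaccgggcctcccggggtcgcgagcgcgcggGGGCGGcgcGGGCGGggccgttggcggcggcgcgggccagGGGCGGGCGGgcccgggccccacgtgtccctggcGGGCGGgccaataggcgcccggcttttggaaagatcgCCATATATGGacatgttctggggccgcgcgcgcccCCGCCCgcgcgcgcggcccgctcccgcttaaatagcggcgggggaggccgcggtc
The CArG box lay 90 to 81 bases before the start, and such a match occurs in 1.47% of all windows. GGGCGG occurred in 6 places. Srf itself stood at 31.3, 15.7 and 30.3 CPM in Zeb2 fl/fl and at 27.7, 26.3 and 28.0 CPM in Zeb2 cKO libraries. It was lowest in Zeb2 fl/fl replicate 2 as Actg1 was, and as 34.6% of all genes tested were, whereas Actb was highest there. A part of Srf in the Actg1 values was not tested.

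Most actin reads of the tissue came from muscle actins. Among 5 actin genes, per kb of exon, Actc1 (cardiac actin) held 65.2 to 85.8% and Acta1 (skeletal actin) 6.99 to 29.1% over the 6 libraries. Actb held 4.05 to 10.8%, Acta2 (smooth muscle actin) 0.488 to 1.65% and Actg1 0.079 to 0.169%. The highest Actb share was that of Zeb2 fl/fl replicate 2.

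The 6 isoform ratios were adjusted together, and their Benjamini-Hochberg values ranged from 0.6 to 0.7 (exact permutation tests, smallest possible p 0.1). With 3 mice in each group, these tests could not have passed a threshold of 0.05.

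Beyond the 10 genes, 85 other genes of the actin system were taken from 8 lists, and 83 of them were tested. An adjusted p under 0.05 was reached by 0 of them. An unadjusted p under 0.05 was reached by 1 in the lower direction, beside 0.861% of all genes. In the higher direction it was reached by 0, beside 1.04%. Without Zeb2 fl/fl replicate 2 it was reached by 2 other genes, counting both directions, beside 2.63% of all genes. Log2 fold changes under -0.2 were found for 30 of the 83, beside 22.6% of all genes. Those over 0.2 were found for 6, beside 15.9%, and the median was -0.11. Without Zeb2 fl/fl replicate 2 these counts were 6 and 3, beside 11.7% and 14.2% of all genes, and the median was -0.03. That library was the highest of the 6 for 43 of the 83 genes, or 51.8%, beside 35.2% of all genes tested. It was the lowest for 19, beside 34.6%. Groups that did not overlap were found for 6 of the 83 genes, all lower in Zeb2 cKO, beside 2.97% of all genes in that direction, and for 0 in the higher direction. The fibroblast and macrophage marker sums of that library moved with these genes, and their part was not tested.

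**Figure D5:**
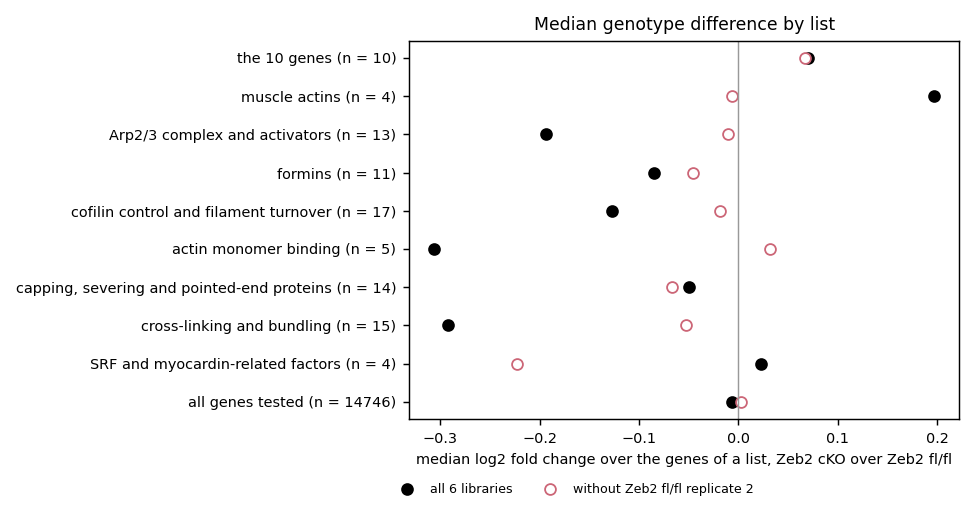
Median log2 fold change (Zeb2 cKO over Zeb2 fl/fl) over the tested genes of each list, with all 6 libraries (filled) and without Zeb2 fl/fl replicate 2 (open). The lists of monomer-binding and cross-linking proteins and of the Arp2/3 complex lie at -0.31, -0.29 and -0.19 with all libraries and at 0.03, -0.05 and -0.01 without that one, whereas the list of SRF and myocardin-related factors moves from 0.02 to -0.22.

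With all libraries, the gene under the unadjusted threshold was Mrtfa, a cofactor that carries the state of the monomer pool to SRF. It stood at 5.87, 7.82 and 6.12 CPM in Zeb2 fl/fl and at 3.66, 4.91 and 5.49 CPM in Zeb2 cKO libraries. Each Zeb2 cKO library lay below each Zeb2 fl/fl library, as was true, in this direction, of 2.97% of all genes tested. Its log2 fold change was -0.49 (standard error 0.20, edgeR's unadjusted p = 0.043, Benjamini-Hochberg adjusted p = 0.957). Without Zeb2 fl/fl replicate 2 it was -0.35, and the unadjusted p of edgeR's test, at 0.091, was over the threshold. For Srf the log2 fold change was 0.09, with a standard error of 0.26, and -0.17 without that library. Of the 4 genes of this list, 1 lay under -0.2 with all libraries, beside 22.6% of all genes. Without Zeb2 fl/fl replicate 2 the count was 2, beside 11.7%.

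Among the 5 monomer-binding genes, Tmsb4x, which codes for the main monomer store thymosin beta-4, differed by -0.47 on the log2 scale (standard error 0.35), which came to 0.031 without Zeb2 fl/fl replicate 2. Of 13 tested genes of the Arp2/3 complex and its activators, which branch filaments, 5 lay under -0.2, a size reached by 22.6% of all genes, and 0 over 0.2. Without Zeb2 fl/fl replicate 2, 0 of the 13 lay under -0.2, a size then reached by 11.7% of all genes. Of 15 tested cross-linking genes, 9 lay under -0.2, and 2 without that library, among the 9 Cald1 (caldesmon) at -0.46 (standard error 0.27) and Cnn2 (a calponin) at -0.29 (standard error 0.15). Without Zeb2 fl/fl replicate 2 these log2 fold changes were -0.09 and -0.12. Cnn2 was 1 of the 6 genes whose groups did not overlap. Of 17 tested genes of cofilin control and filament turnover, 6 lay under -0.2, and 2 without that library. Gmfg, a low-count gene of this list that acts on branched filaments, had a log2 fold change of -0.60 with a standard error of 0.29, and of -0.47 without that library. Twf2 (twinfilin), of the same list, stood at 54.2, 43.5 and 61.8 CPM in Zeb2 fl/fl and at 38.9, 44.2 and 44.4 CPM in Zeb2 cKO libraries, with the lowest Zeb2 fl/fl value among those of the Zeb2 cKO hearts. Its log2 fold change was -0.32 (standard error 0.16) with all libraries and -0.44 without Zeb2 fl/fl replicate 2. Capg, which caps filament ends, was another of the 6 genes with groups that did not overlap, and differed by -0.68 on the log2 scale (standard error 0.33), which came to -0.17 without Zeb2 fl/fl replicate 2. Tmod1, which caps the pointed end of the thin filament, differed by 0.25 (standard error 0.20), and by 0.07 without it. Acta2 reached 85.4 CPM in Zeb2 cKO replicate 2 against 31.1 to 47.3 CPM in the other libraries, and its log2 fold change of 0.36 (standard error 0.36) came to -0.15 without that library.

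The genes whose pattern over the 6 libraries lay closest to that of Tpm1 were sought among 5896 genes with a mean of at least 10 CPM, by the root-mean-square distance of centred log2 CPM. They were Epn1 at 0.026, Dsc2 at 0.027 and Tln2 at 0.033 on the log2 scale. Each was lowest in Zeb2 fl/fl replicate 2, for example Tln2 at 45.5 CPM against 75.7 to 100.2 CPM elsewhere. Those closest to Tpm4 were Atp2b4 at 0.039, Foxo1 at 0.039 and Eif3b at 0.045. Over 6 libraries such likeness is a description of these libraries only.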

How the data were processed

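Per the labels and methods, the authors sequenced RNA depleted of ribosomal RNA from 3 WT (Zeb2 fl/fl) and 3 Zeb2 cKO hearts as stranded single-end reads of 75 bases. Alignment and counting on Gencode M4 (GRCm38) used the STAR workflow, and the authors deposited raw counts per gene. The STAR version, strand option and treatment of reads that map to several places are not given in the sources used here. The table held 0 columns that matched no sample.

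From these counts, symbols and exon lengths were taken by gene identifier from Gencode M21 of the same build, which gave a symbol to 14573 of 14746 genes tested. Of 38293 genes, 24115 had a count. Genes were kept with filterByExpr, normalized with TMM and tested with glmQLFit and glmQLFTest in edgeR 4.0.16 (R 4.3.3), with genotype as the factor, a prior count of 0.125 and Benjamini-Hochberg adjustment over all genes kept. Ratios were compared with exact permutation tests (SciPy 1.17.1). Copies were searched with BLAST 2.17.0 and coding sequences aligned with Biopython 1.88. Promoter windows came from RefSeq. DESeq2 1.42.0, its size factors, no filter on low counts, removal of the 37 mitochondrially encoded genes, the replicate number as a block and leaving out each library were the alternatives.

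Depth was 37288174 to 51136331 counts per library, at least 14301225 of them outside mitochondrially encoded genes. Among the members, counting error weighs most on Actg1 (180 to 486 counts) and Tpm2 (375 to 654 counts). The labels do not say more of the replicates than their number, and the p-values depend on the spread between these samples. On simulated data of this comparison with 14554 tested genes, edgeR found 27 of 100 genes with a simulated log2 change of 1. It found 90 of 99 with a change of 2 and 10 of 14355 with none, and DESeq2 found 61, 93 and 47. Changes smaller than 1 in size, such as those of the 10 members, were not simulated, so power for them was not tested. Members and lists were chosen with earlier results of these data known. Named genes were the 10 members, the 2 genes of smallest unadjusted p in each other actin list, and the 3 genes closest in pattern to Tpm1 and to Tpm4, and not all are printed.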

Additional observations from a re-analysis of the deposited data

How the results depend on the processing

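The count of members with an adjusted p under 0.05 was 0 under each alternative tried, and the count over all genes was 0 except with DESeq2, which called 2, Slc46a2 and Mrap2, named here after their values were seen. Same-numbered libraries did not deviate together (correlations 0.088, -0.14 and -0.087), so the replicate numbers were not taken as pairs. With the replicate block, 0 members had an unadjusted p under 0.05, Tpm2 then having an edgeR p of 0.079. Leaving out each library in turn gave 0 to 2 such members. Tpm2 no longer had an unadjusted p under 0.05 without Zeb2 fl/fl replicate 3, Zeb2 cKO replicate 1 or Zeb2 cKO replicate 3, at log2 fold changes of 0.26 to 0.35 over all such fits. Of 32 named genes, 0 reversed under the 5 alternatives that kept all libraries and 14 reversed when 1 library was left out, 12 of them without Zeb2 fl/fl replicate 2. Their log2 fold changes then ranged from -0.40 to 0.034 (Actb), -0.22 to 0.063 (Cfl1), -0.0018 to 0.13 (Cfl2), -0.16 to 0.35 (Tpm1), -0.20 to 0.067 (Tpm4), -0.73 to 0.031 (Tmsb4x), -0.17 to 0.25 (Srf), -0.15 to 0.63 (Acta2), -0.13 to 0.40 (Epn1), -0.15 to 0.39 (Dsc2), -0.17 to 0.35 (Tln2), -0.19 to 0.054 (Atp2b4), -0.25 to 0.019 (Foxo1) and -0.21 to 0.033 (Eif3b). The difference of log2 ratios ranged from -0.19 to 0.53 for Tpm1 over Tpm4, -0.0058 to 0.73 for Tpm1 over Tpm3, 0.0095 to 0.32 for Cfl2 over Cfl1, 0.19 to 0.50 for Tpm2 over Tpm4, 0.096 to 0.36 for Pfn2 over Pfn1 and -1.16 to -0.15 for Actb over Actg1. The number of all genes with an unadjusted p under 0.05 ranged from 122 to 1134 in these fits and was 600 with no filter on low counts. The lowest count of the 10 genes in a library was 180, for Actg1, where depth limits precision most.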
